A study of Mus musculus with 8 samples.

Results

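Outer dense fibers are the cytoskeletal rods of the mammalian sperm tail, and 8 genes named for them were examined in testis RNA of Tmem232-deficient mice: Odf1, Odf2, Odf2l, Odf3, Odf3b, Odf3l1, Odf3l2 and Odf4. They were chosen by symbol, and all 8 were found among the 19906 genes of the table. Whole testes of 4 Tmem232-/- and 4 Tmem232+/+ mice, all 2 months old, gave 1 RNA-seq library per mouse, and the question was which transcripts differ when Tmem232, a testis gene for a transmembrane protein, is disrupted. The Tmem232-/- mice came from CRISPR-Cas9 editing of C57BL/6 oocytes, which removed a fragment with several internal exons, a constitutive deletion, and no other allele or treatment is named for either genotype. The libraries are called KO-labelled (Tmem232-/-) and WT-labelled (Tmem232+/+) below. Each value compares 4 mice with 4 mice, and the p-values set the difference between genotypes against the spread between these animals.

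The rods run along the outer side of the axonemal doublets through the midpiece and much of the principal piece, where they stiffen the tail and shield it from shear. Their proteins, rich in cysteine, are laid down late in spermiogenesis, when round spermatids elongate. ODF1 and ODF2 are the main building blocks of the rods, and ODF2 also serves in other cells as cenexin, a protein of the mother centriole appendages. ODF3 and its relatives ODF3B, ODF3L1 and ODF3L2 form a separate family of repeat proteins, ODF4 is a membrane-associated protein of the sperm tail, and ODF2L sits at centrioles and basal bodies, where it restrains cilium formation.

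The table listed between 15428421 and 16350871 counts per library. Levels are given as CPM, the counts of a gene relative to all counts of its library, after scaling by the trimmed mean of M values (TMM), and fold changes come from the quasi-likelihood test of edgeR, with p-values adjusted after Benjamini and Hochberg over 15787 tested genes. Tmem232 itself had 122 to 148 CPM in the KO-labelled libraries and 106 to 111 CPM in the WT-labelled ones, a log2 fold change of 0.27 (SE 0.0721, adjusted p = 0.0335 in edgeR). This call was lost without KO-labelled replicate 1 or 2 (adjusted p = 0.0858 and 0.086) and without WT-labelled replicate 2 or 4 (adjusted p = 0.0888 and 0.0892). The single count per gene does not separate the deleted exons from the others, so this count does not check the labels, and each direction below rests on the labels alone. Of the testis markers, the summed level of 7 spermatocyte genes was 1740 to 2284 CPM in the KO-labelled libraries and 2054 to 2244 CPM in the others. Genes of spermatids were higher in the KO-labelled libraries, where 10.3% of all tested genes rose and 1.46% fell. All 8 round spermatid markers rose, with summed levels of 507 to 644 CPM against 185 to 290 CPM, and all 8 elongating spermatid markers rose, with 722 to 1381 CPM against 154 to 366 CPM. Prm1, the gene of protamine 1, which packs sperm DNA, was at 95.9 ± 39.8 CPM (SD, n = 4) against 4.55 ± 2.43 CPM (SD, n = 4). Protamine and transition protein genes are known as abundant transcripts of the adult testis, and the WT-labelled libraries were low in them, with 6.44 ± 4.31 CPM for Prm2 and 5.95 ± 3.01 CPM for Tnp1 (SD, n = 4 each), beside 60.6 ± 12.3 CPM for the round spermatid gene Acrv1. Of the other elongating spermatid markers, Smcp (128 ± 49.1 CPM) and Gapdhs (71.3 ± 19.3 CPM) had higher means there than Acrv1 (SD, n = 4 each). Their log2 fold changes were 1.38 and 1.49. Tnp2, Spem1 and Tssk6 had lower means than Acrv1, with 16.6, 4.34 and 2.3 CPM. All differences below are relative to these WT-labelled libraries. The part of their low level of protamine, transition protein, Spem1 and Tssk6 transcripts was not tested. In bulk tissue, a change in the number of cells of a type and a change in RNA per cell cannot be told apart.

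Of the 8 genes, 7 passed the filter on low counts, 5 rose in the KO-labelled libraries and 0 fell, at an adjusted p under 0.05 in edgeR. The shares of all tested genes by the same criterion were 10.3% and 1.46%. None of the 7 was lower at an unadjusted p under 0.05 either, and DESeq2 also called 0 lower. Odf1, Odf3, Odf3b and Odf3l1 rose by a fold change of 2 or more, which 5.23% of all tested genes did, and Odf2 rose by less. In these 5 genes, every KO-labelled library lay above every WT-labelled library, an arrangement seen in 11.8% of all tested genes. Odf4 and Odf2l overlapped between the genotypes and did not pass the test. Odf3b passed the filter only through the libraries in which it is high, so its call adds no weight to these counts.

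**Figure D1:**
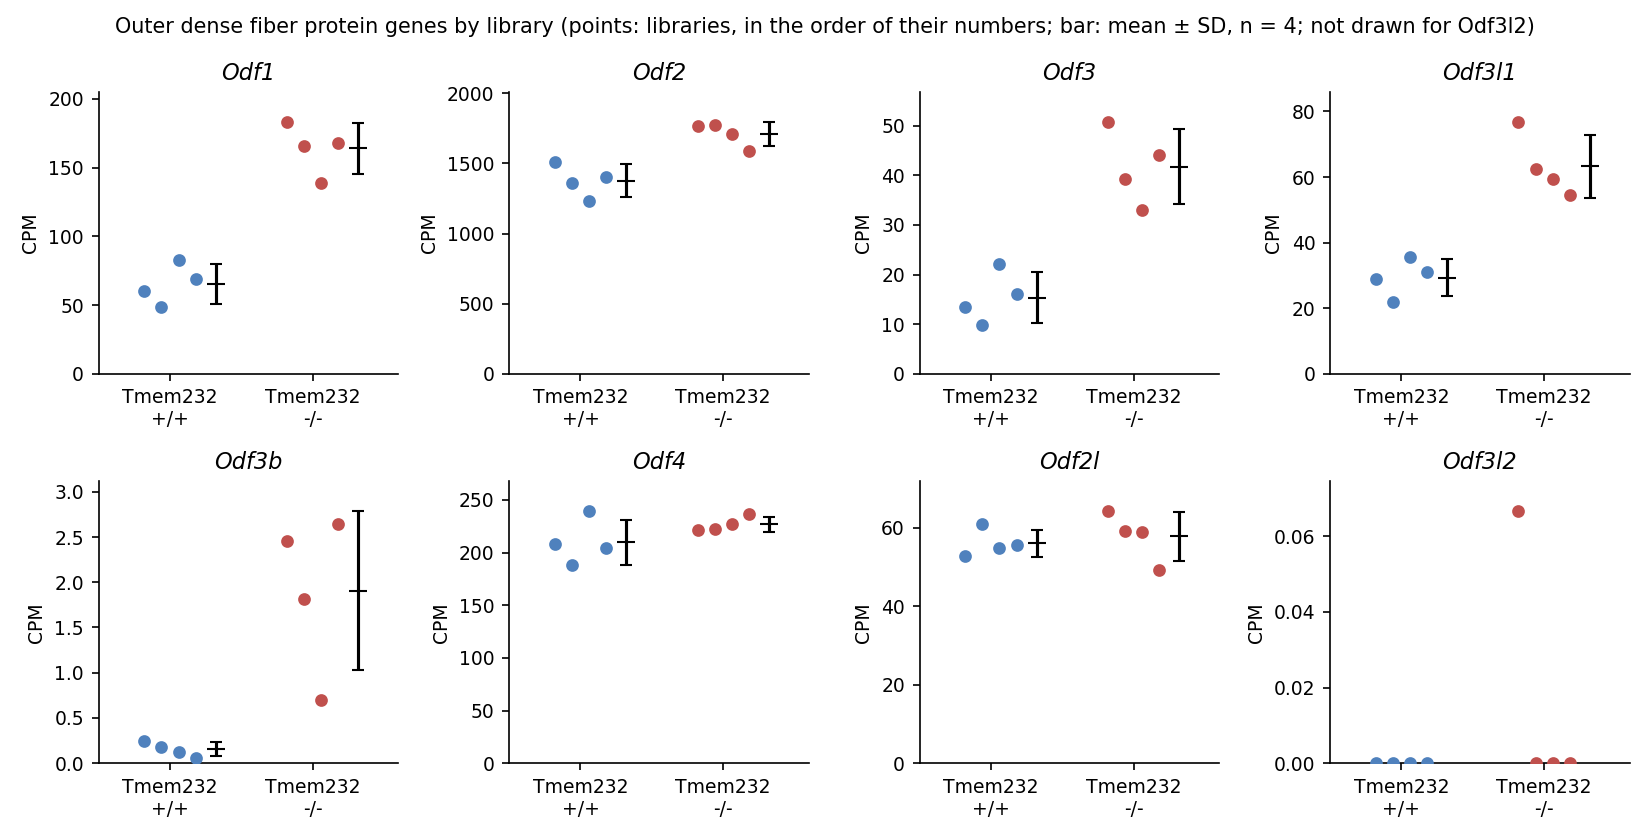
TMM-scaled CPM of the 8 genes on separate linear axes, with each point a library, blue for Tmem232+/+ and red for Tmem232-/-, and bars for mean ± SD (n = 4; none is drawn for Odf3l2, which had 1 count in all). The red points of Odf1, Odf2, Odf3, Odf3l1 and Odf3b all lie above the blue points, whereas those of Odf4 and Odf2l overlap with them.

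The start regions of the genes were read first. The RefSeq promoter table of GRCm38.p6 held 6 of the 8 genes, namely Odf2, Odf2l, Odf3, Odf3b, Odf3l1 and Odf4, and the 250 bases before each listed start were searched on both strands for 5 short motifs. The motifs were the half-site of the cAMP response element (TGACG) and the whole element (TGACGTCA, which contains the half-site), the half-site of the X-box bound by RFX factors (GTTGCC), the TATA box (TATAAA) and the CCAAT box (CCAAT). Among 32851 promoters of the same length, the share that holds the motif is 17.8% for TGACG, 1.55% for TGACGTCA, 10.4% for GTTGCC, 12.4% for TATAAA and 33.8% for CCAAT. The windows below are shown because they hold the X-box or cAMP half-sites found in genes that rose. They read 5′ to 3′ on the strand of the gene, with the motif or its reverse complement in capitals.
Odf3 (chr7:140847841-140847866, plus strand, X-box half-site 65 bases before the start): tttttagggaGTTGCCtggcacagac
Odf3l1, first listed start (chr9:56853922-56853947, minus strand, X-box half-site 123 bases before it): aaaaaaaagaGTTGCCagtagatgtg
Odf3l1, second listed start (chr9:56852051-56852076, minus strand, X-box half-site in reverse 103 bases before it): caggcaccacGGCAACgggagaaata
Odf2, first listed start (chr2:29889608-29889632, plus strand, cAMP half-site 102 bases before it): cgtgtctcccTGACGacggggcggt
Odf2, same start (chr2:29889683-29889707, plus strand, cAMP half-site 27 bases before it): ggcatctctgTGACGctgggggctg

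The Odf3 window lies in a UTR of a longer transcript in the GENCODE M21 annotation of GRCm38, and the Odf3l1 and Odf2 windows lie in introns of longer transcripts. Odf3 and Odf3l1 thus both carried the letters GTTGCC or their reverse complement ahead of a listed start. The share of 10.4% is per promoter, and Odf3l1 was searched at 2 listed starts. A link of these letters to the levels was not tested. Odf3b, their relative, held none of the 5 motifs in its 250 bases, and neither did Odf4. Odf2l held the CCAAT box at 95 and 53 bases before its first start, and Odf3l1 and Odf2 held it before at least 1 of their starts. The whole cAMP element and TATAAA were found in none of the 6 genes. These matches describe the letters of the windows and nothing about what binds there.

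Among the structural proteins of the rods, Odf1 rose 2.51-fold. Odf1 (Entrez ID 18285; GRCm38, chr15:38219203-38226735, plus strand), whose small heat-shock-like product is also needed to hold the sperm head on the tail, had 183, 166, 139 and 168 CPM in KO-labelled replicates 1 to 4. WT-labelled replicates 1 to 4 had 60.6, 48.4, 83.0 and 69.0 CPM. The lowest KO-labelled library, replicate 3, was 1.67-fold above the highest of the others, which was also a replicate 3. The means were 164 ± 18.4 CPM (SD, n = 4) and 65.3 ± 14.5 CPM (SD, n = 4). The log2 fold change was 1.33 (SE 0.146, 95% interval 1.01 to 1.65, adjusted p = 9.97e-05 in edgeR), and it lay between 1.21 and 1.49 with each library left out in turn. An exact permutation test of the CPM, two-sided over the 70 arrangements of the libraries, gave p = 0.029, the smallest this design allows. The same p was obtained for Odf2, Odf3 and Odf3l1.

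Odf2 rose by a smaller amount, from the highest level of the 8 genes. Odf2 (Entrez ID 18286; chr2:29884137-29931746, plus strand), the gene with the most listed transcripts here (51), had 1767, 1771, 1709 and 1587 CPM in KO-labelled replicates 1 to 4 and 1510, 1362, 1230 and 1406 CPM in the WT-labelled ones. The groups were separate but close, with the lowest KO-labelled library 1.05-fold above the highest of the others. The means were 1708 ± 85.8 CPM (SD, n = 4) and 1377 ± 116 CPM (SD, n = 4), which gave a log2 fold change of 0.31 (SE 0.0766, 95% interval 0.14 to 0.48, adjusted p = 0.0203 in edgeR), or 1.24-fold. The call was lost in the edgeR fits without KO-labelled replicate 1, 2 or 3 (adjusted p = 0.0607, 0.0728 and 0.0516) and without WT-labelled replicate 2 or 4 (adjusted p = 0.0539 and 0.0578). The table gives a gene total, so the tail form of Odf2 and its centriolar form, cenexin, were not separated.

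The change of Odf1 exceeded that of Odf2 within the same libraries. Taken from FPKM, which is per transcript length, Odf1 stood at 25.9%, 23.7%, 20.6% and 26.5% of Odf2 in KO-labelled replicates 1 to 4 and at 10.2%, 9.14%, 17.3% and 12.5% in the WT-labelled ones. The groups did not overlap, and WT-labelled replicate 3 came nearest to the other genotype. The mean log2 ratio was -2.06 ± 0.166 (SD, n = 4) against -3.07 ± 0.405 (SD, n = 4), a difference of 1.01 (exact permutation test, two-sided p = 0.029). The difference was 1.03 from CPM (exact permutation p = 0.029). With each library left out it lay between 0.885 and 1.19, values given without a test. The ratio does not depend on how libraries are scaled to each other.

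In the Odf3 family, Odf3 and Odf3l1 rose, Odf3b rested on few counts, and Odf3l2 was not detected beyond a single count. Odf3, also called SHIPPO1, codes for a repeat protein of the sperm tail, and its gene (Entrez ID 69287; chr7:140847916-140850925, plus strand) had 50.7, 39.2, 33.1 and 44.1 CPM in KO-labelled replicates 1 to 4. It had 13.4, 9.93, 22.2 and 16 CPM in the WT-labelled ones. The highest WT-labelled library was again replicate 3 and the lowest KO-labelled library again replicate 3, still 1.49-fold apart. The means were 41.8 ± 7.46 CPM (SD, n = 4) and 15.4 ± 5.19 CPM (SD, n = 4), which gave a log2 fold change of 1.44 (SE 0.21, 95% interval 0.98 to 1.91, adjusted p = 0.000644 in edgeR). Leaving out each library gave 1.28 to 1.70.

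Odf3l1, an Odf3-like gene (Entrez ID 382075; chr9:56848656-56860510, minus strand), had 76.7, 62.5, 59.4 and 54.5 CPM in KO-labelled replicates 1 to 4. The WT-labelled ones had 28.9, 22, 35.5 and 31.0 CPM. Here the lowest KO-labelled library was replicate 4, and it lay 1.54-fold above replicate 3, the highest of the others. The means were 63.3 ± 9.56 CPM (SD, n = 4) and 29.3 ± 5.59 CPM (SD, n = 4), which gave a log2 fold change of 1.11 (SE 0.143, 95% interval 0.80 to 1.42, adjusted p = 0.000269 in edgeR). Its interval overlapped those of Odf1 and Odf3.

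Odf3b was by far the least abundant of the genes that rose and is described here on its counts. Odf3b (Entrez ID 70113; chr15:89377447-89379681, minus strand) had 37, 29, 11 and 43 counts in KO-labelled replicates 1 to 4 and 4, 3, 2 and 1 counts in the WT-labelled ones. KO-labelled replicate 3 was lowest of its genotype, as for Odf1 and Odf3, and still above every library of the other genotype. The sums were 120 and 10 counts, a ratio of 12.3 relative to the scaled library sizes with an exact 95% interval of 6.46 to 26.3, which covers counting error only. The levels were 1.91 ± 0.881 CPM (SD, n = 4) and 0.155 ± 0.0799 CPM (SD, n = 4), and the fitted log2 fold change was 3.56 (SE 0.516, 95% interval 2.42 to 4.69), given as a description since the gene entered the fit only through its high group. On the scale of log2(FPKM + 1), which understates changes of low genes, limma gave a log2 fold change of 1.43. Its size relative to Odf1, Odf3 and Odf3l1 therefore depends on the scale and rests on 10 counts in all WT-labelled libraries.

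Odf3l2 (Entrez ID 382384; chr10:79639526-79645738, minus strand) had 1 count in KO-labelled replicate 1 and 0 counts in the other 7 libraries. It was not tested. A count of 0 allows up to 3 counts, or 0.182 to 0.19 CPM in the WT-labelled libraries, so a true level under this limit may give no count at this depth. The 1 count of replicate 1 (0.0666 CPM) is itself under 3 counts, as are the counts of 2 and 1 of Odf3b in WT-labelled replicates 3 and 4, so the levels of these libraries are uncertain. How reads shared between these related genes were counted is not given in the sources used here.

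**Figure D2:**
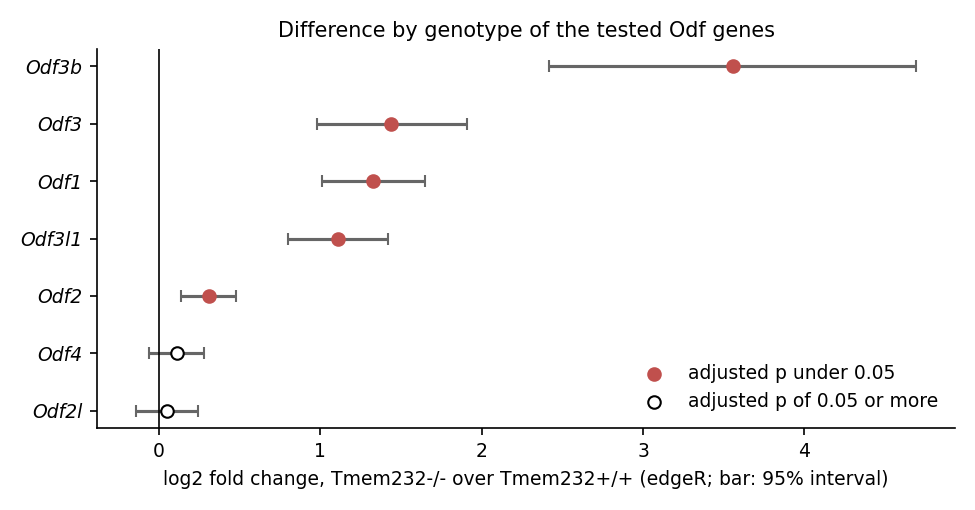
Log2 fold change of the 7 tested genes from edgeR, KO-labelled libraries over the WT-labelled ones, with 95% intervals; filled points had an adjusted p under 0.05. Odf1, Odf3 and Odf3l1 lie together between 1.11 and 1.44, Odf3b lies at 3.56 with a wide interval, Odf2 at 0.31, and the intervals of Odf4 and Odf2l include 0.

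Odf4 and Odf2l did not pass the test, and their intervals bound how far they could differ. Odf4, also called Oppo1 (Entrez ID 252868; chr11:68921828-68927522, minus strand), had 221, 222, 227 and 237 CPM in KO-labelled replicates 1 to 4 and 208, 188, 239 and 204 CPM in the WT-labelled ones. WT-labelled replicate 3 was the highest of all 8 libraries. The log2 fold change was 0.11 (SE 0.0785, 95% interval -0.06 to 0.28, adjusted p = 0.414 in edgeR; exact permutation p = 0.23), so that the upper end of the interval is a fold change of 1.22. It was 0.21 (adjusted p = 0.0573 in edgeR) without WT-labelled replicate 3 and 0.06 without WT-labelled replicate 2. Odf4 had the most even level of the 8 genes among the KO-labelled libraries, with a coefficient of variation of 3.37%.

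Odf2l (Entrez ID 52184; chr3:145118564-145153915, plus strand) is related to Odf2 by name, and its product is centriolar. It had 64.1, 59.2, 58.8 and 49.2 CPM in KO-labelled replicates 1 to 4 and 52.8, 60.9, 54.8 and 55.5 CPM in the WT-labelled ones. The highest and the lowest library were both KO-labelled. The log2 fold change was 0.05 (SE 0.0864, 95% interval -0.14 to 0.24, adjusted p = 0.774 in edgeR; exact permutation p = 0.63).

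Compared per transcript length, the 8 genes spanned a wide range. In the KO-labelled libraries, the mean FPKM fell in the order Odf2 (718 ± 25.4; SD, n = 4), Odf4 (207 ± 10.4), Odf1 (173 ± 18.8), Odf3l1 (65.9 ± 8.98), Odf3 (54.9 ± 9.43), Odf2l (21.8 ± 1.98), Odf3b (2.33 ± 1.07) and Odf3l2, which was listed at 0.06 in replicate 1 and at 0 in the others. Odf3l1 and Odf3 overlapped in FPKM, and the other neighbours in this order did not. In the WT-labelled libraries the order was Odf2 (585 ± 42.3), Odf4 (197 ± 20.3), Odf1 (70.9 ± 16), Odf3l1 (31.4 ± 6.02), Odf2l (22 ± 1.84), Odf3 (20.7 ± 7.10) and Odf3b (0.185 ± 0.0957), with Odf3l2 listed at 0. Odf3 overlapped with both Odf2l and Odf3l1 there, although Odf3l1 was above Odf3 within each of these libraries. Odf2l also overlapped with Odf3l1. Odf3 thus stood above Odf2l in each KO-labelled library and was not separable from it in the others. Percentiles of FPKM among all genes of the table were taken in each library and averaged over each genotype. They were 99.7 and 99.6 for Odf2, 97.4 and 91.8 for Odf1, and 89.0 and 74.7 for Odf3 (KO-labelled libraries first).

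Summed over the 8 genes, FPKM was 1244 ± 41.2 in the KO-labelled libraries and 927 ± 29.2 in the others (SD, n = 4 each), and the groups did not overlap. The sum was 1289, 1264, 1196 and 1227 in KO-labelled replicates 1 to 4 and 946, 884, 934 and 944 in the WT-labelled ones. Odf2 made up 57.8% ± 1.75 (SD, n = 4) of this sum in the KO-labelled libraries and 63.1% ± 4.72 (SD, n = 4) in the others, and these shares overlapped (exact permutation p = 0.11). The share of Odf1 was 13.9% ± 1.18 against 7.63% ± 1.61 (SD, n = 4 each), and that of Odf4 was 16.7% ± 1.26 against 21.3% ± 2.02 (SD, n = 4 each; exact permutation p = 0.029 for both genes). Odf1 and Odf4 thus moved in opposite directions as shares although Odf4 did not pass the test as a level, since shares of 1 sum depend on each other.

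**Figure D3:**
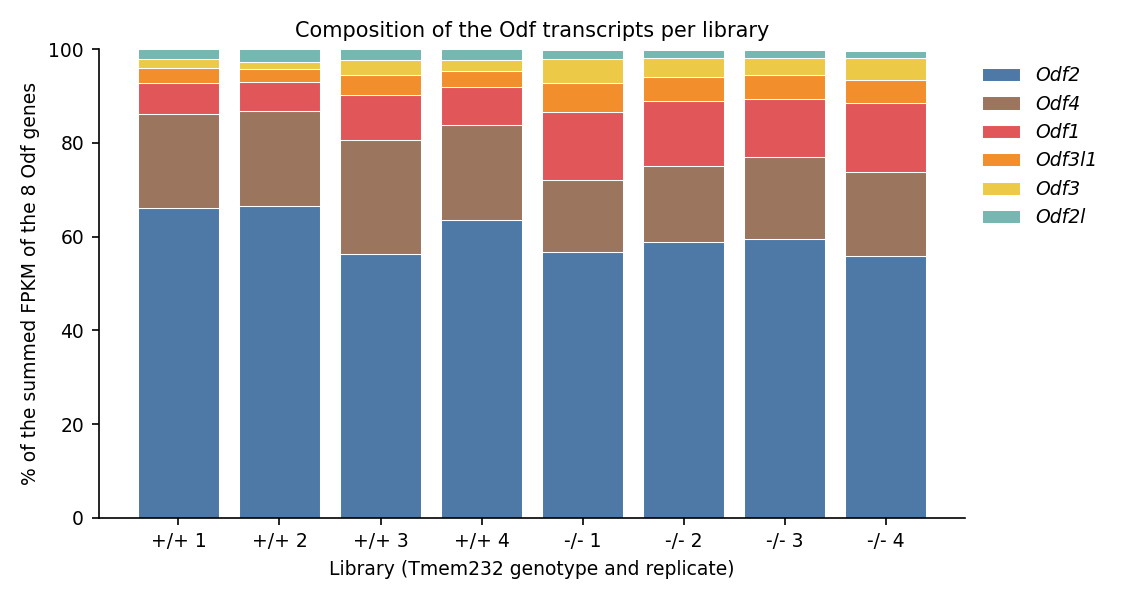
Stacked bars of the share of each gene in the summed FPKM of the 8 Odf genes, in percent, for each library (Odf3b and Odf3l2 are too small to be drawn). Odf2 takes the largest share in every library, and the red segment of Odf1 is larger in the 4 Tmem232-/- libraries, with a mean of 13.9% against 7.63%.

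Within the genotypes, Odf1 and Odf3 had the same order of libraries as the elongating spermatid markers, and the other genes that rose did not in both genotypes. In the WT-labelled libraries, Odf1, Odf3 and Odf3l1 were each lowest in replicate 2, then higher in 1, 4 and 3, and the summed elongating spermatid markers had the same order, with 154, 203, 233 and 366 CPM. In the KO-labelled ones, Odf1 and Odf3 were lowest in replicate 3, then higher in 2, 4 and 1, and the same markers had 722, 1030, 1365 and 1381 CPM. Odf1 was close in replicates 2 and 4 (166 and 168 CPM), as were the marker sums in replicates 4 and 1. The share of all genes with these orders was not counted. Odf3l1 was lowest in KO-labelled replicate 4, then higher in 3, 2 and 1, which is not the order of these markers. Odf3b was highest in KO-labelled replicate 4 and in WT-labelled replicate 1, and lowest in KO-labelled replicate 3 and in WT-labelled replicate 4. The summed round spermatid markers had the same order as the elongating ones in the WT-labelled libraries (185, 240, 257 and 290 CPM), whereas in KO-labelled replicates 1 to 4 they had 644, 567, 507 and 510 CPM, an order that none of these 4 genes shared. Odf2 did not share these orders, since WT-labelled replicate 3 was its lowest library and KO-labelled replicate 4 the lowest of its genotype. WT-labelled replicate 3 also stood apart over all genes, with a chi-square of 14.73 to 23.45 per gene against the other libraries of its genotype, which differed from each other by 3.82 to 6.67. The KO-labelled libraries were not even either: replicates 2 and 3 differed by 3.65 per gene, and every other pair by 8.33 to 13.82. Without WT-labelled replicate 3, Odf1, Odf2, Odf3 and Odf3l1 kept their calls. The part of the spermatid content in the differences of the Odf genes was not tested.

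**Figure D4:**
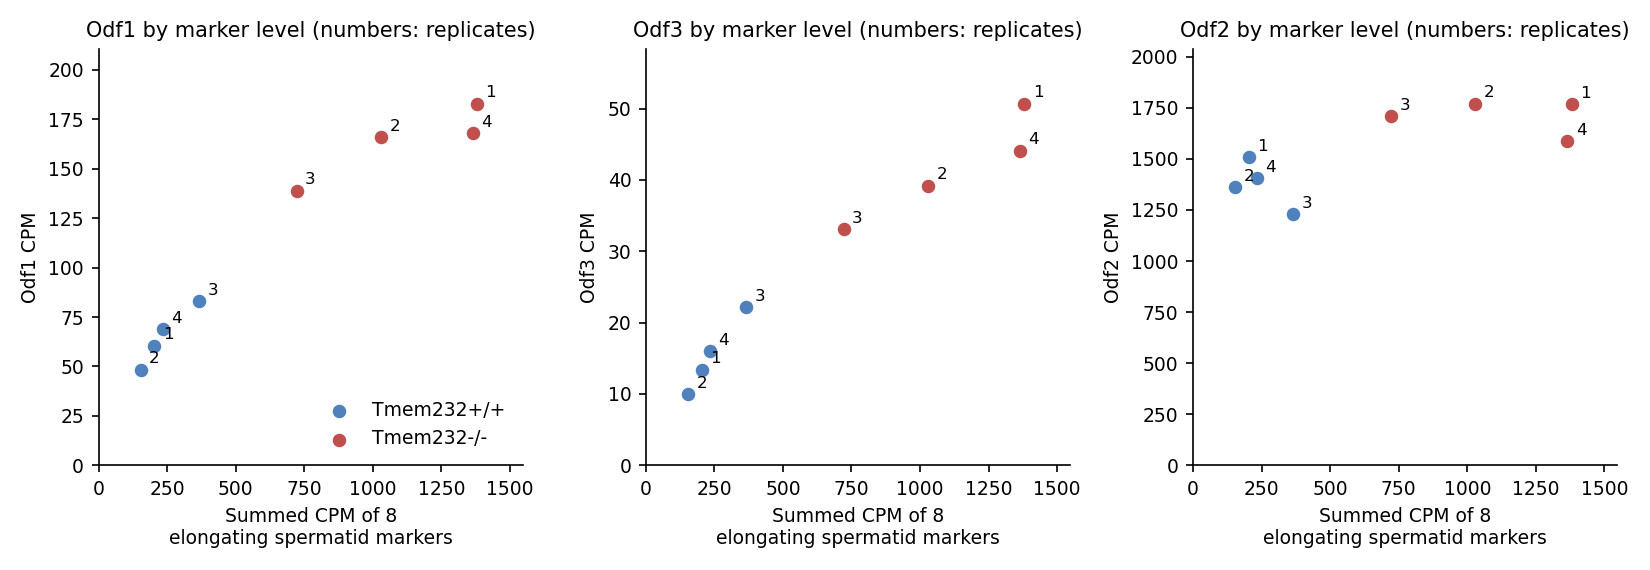
CPM of Odf1, Odf3 and Odf2 against the summed CPM of 8 elongating spermatid markers, with each point a library, blue for Tmem232+/+ and red for Tmem232-/-, and numbers for replicates. Odf1 and Odf3 are higher where the marker sum is higher within each genotype, and Odf2 is not; the marker sums are 154 to 366 CPM in blue and 722 to 1381 CPM in red.

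The genes whose levels were most like those of Odf1 over the 8 libraries, of 15061 with a mean of at least 1 CPM, were Selenov, Txndc2 and Rnf133, each with a Pearson correlation of 0.999 of log2(CPM + 0.5). For Odf2 they were Ghitm (0.995), Lrrc27 (0.986) and Inpp4b (0.985). These values describe likeness only, since the libraries share the difference between genotypes.

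Partners of ODF1 and ODF2 in the rods gave a mixed picture. Of 6 genes whose products bind or modify these proteins, 3 rose and 0 fell, beside 10.3% and 1.46% of all tested genes, with a median log2 fold change of 1.07 against -0.054 over all tested genes. Oaz3, which codes for the antizyme of haploid germ cells, had a log2 fold change of 1.61 (270 ± 47.6 against 88.4 ± 28.2 CPM; SD, n = 4 each), and Spag4, a SUN-domain protein that binds ODF1, had 1.25 (76.5 ± 7.02 against 32.1 ± 3.48 CPM). Tssk4, the kinase that phosphorylates ODF2, had 1.05 (54.3 ± 7.26 against 26.2 ± 5.28 CPM; adjusted p = 0.000346 in edgeR). Spag5, a spindle protein that also binds ODF1, had -0.04 (adjusted p = 0.711 in edgeR).

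Around the rods, the fibrous sheath, which surrounds them in the principal piece, had 4 of 6 genes that rose and 0 that fell (10.3% and 1.46% of all tested genes), with a median log2 fold change of 1.37. Akap4, its main anchoring protein, had 1.67 (312 ± 40.1 against 98.4 ± 14.3 CPM; SD, n = 4 each), Fscb 1.51, Ropn1 1.39 and Akap3 1.34, and the lowest was Ropn1l with 0.07 (adjusted p = 0.796 in edgeR). Of the 5 tektins, filament proteins of the doublets, 3 rose and 0 fell, beside the same shares of all tested genes, with a median of 0.40. These were Tekt5 (0.81), Tekt2 (0.55) and Tekt4 (0.40), and the lowest was Tekt3 with 0.18 (adjusted p = 0.171 in edgeR). All 5 tektins rose without WT-labelled replicate 3.

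The centriolar setting of cenexin and ODF2L showed little of this. Of 15 genes for mother centriole appendages and centriolar satellites, 2 rose and 0 fell, a share close to the 10.3% of all tested genes that rose, with a median log2 fold change of 0.00. The 2 genes are named for completeness. Sclt1, of the distal appendages, had 0.52 (adjusted p = 0.0111 in edgeR) and Cep290, of satellites and the transition zone, 0.47 (adjusted p = 0.0199 in edgeR). Ccdc68, of the subdistal appendages, had the lowest value of -0.77 (adjusted p = 0.243 in edgeR) at 0.795 ± 0.496 against 1.36 ± 0.161 CPM (SD, n = 4 each). The count of 2 became 1 without KO-labelled replicate 3 or WT-labelled replicate 2 or 4, and 4 without KO-labelled replicate 4. Odf2l, with 0.05, lay near the median of this list, and Odf2, with 0.31, below its 2 called genes.

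**Figure D5:**
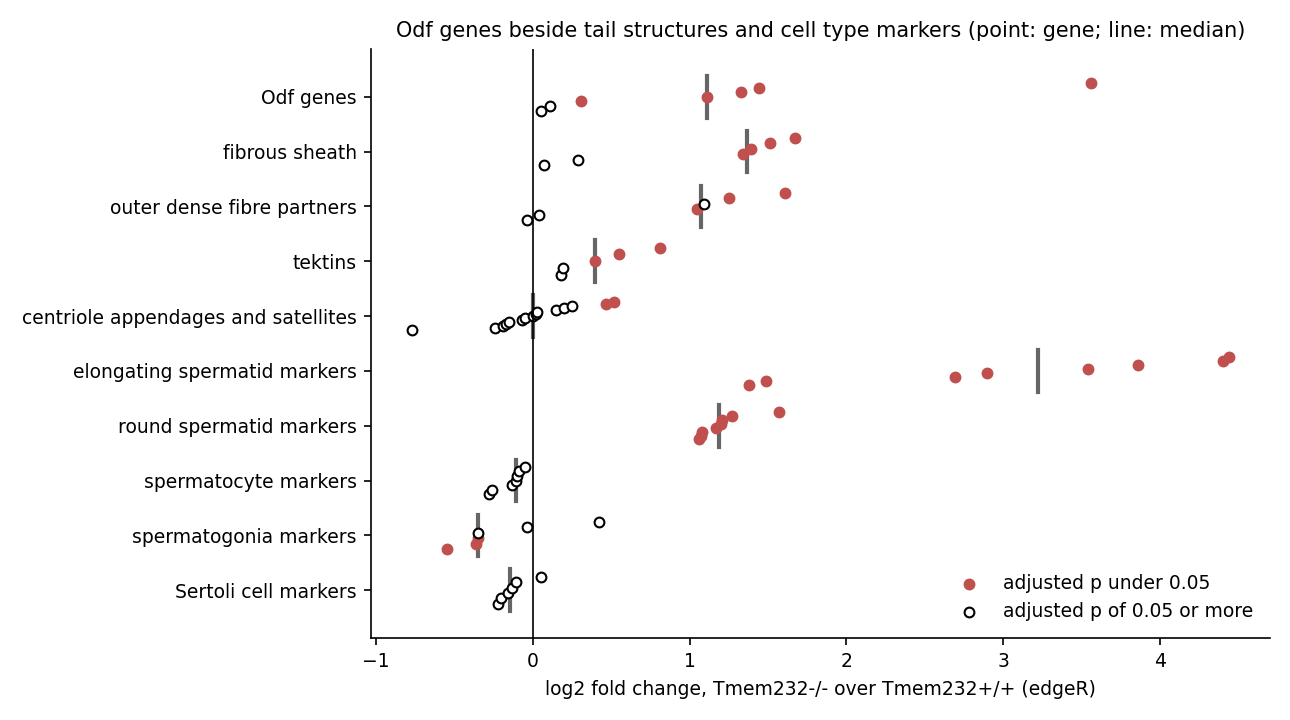
Log2 fold change from edgeR of the Odf genes, of 4 lists of related structures and of 5 lists of cell type markers, with each point a tested gene, filled at an adjusted p under 0.05, and a line at the median. The Odf genes spread from 0.05 to 3.56, the fibrous sheath has a median of 1.37, the partners 1.07, the round spermatid markers 1.19, the elongating spermatid markers 3.22, the centriole list 0.00 and the spermatocyte markers -0.11.

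Markers of other cells were mostly not called. The called members of each list, and some others, are named here after their values were seen. Over all tested genes, 10.3% rose and 1.46% fell, and the number that fell, 230, ranged from 28 to 466 between alternatives. Of 6 spermatogonia markers 3 fell (Stra8, Sohlh1 and Uchl1) and 0 rose, with a median log2 fold change of -0.35. Their summed levels were 142 to 151 CPM in the KO-labelled libraries and 171 to 181 CPM in the others. The markers not called went in both directions: Zbtb16 had -0.35, Kit -0.04 and Gfra1 0.42 (adjusted p = 0.112, 0.811 and 0.101 in edgeR). Of 4 peritubular myoid markers 2 fell (Acta2 and Myh11) and 0 rose, with a median of -0.35. Of 7 spermatocyte, 6 Sertoli, 6 Leydig, 4 macrophage and 4 endothelial markers, 0 rose and 0 fell in edgeR. Their medians were -0.11, -0.14, 0.47, 0.19 and -0.04 in this order. The Leydig markers summed to 398 to 566 CPM in the KO-labelled libraries and 252 to 433 CPM in the others. Among them Cyp17a1 (0.82, adjusted p = 0.125 in edgeR) and Star (0.34, adjusted p = 0.0718 in edgeR) did not overlap between genotypes. Every KO-labelled library lay above every WT-labelled one in 11.8% of all tested genes. Cyp11a1, Hsd3b1, Insl3 and Lhcgr overlapped, and Insl3 had a log2 fold change of -0.02. Of 5 markers of multiciliated cells, which also use cenexin, 3 were tested and 2 of them rose (Foxj1, 0.53, and Deup1, 0.86), with summed levels of 198 to 260 CPM against 122 to 141 CPM. Mcidas, which drives the fate of these cells, was near 0 in both genotypes. Of 6 epididymis markers 4 were in the table, with summed levels of 0.0632 to 6.39 CPM against 0 to 32.3 CPM, and Crisp1, the only one tested, had -2.54 (adjusted p = 0.28 in edgeR). The part of these cells in the Odf values was not tested.

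Genes in the table within 10 kb of an Odf gene were found for all but Odf1 and Odf2l, and 10 of them were tested. None rose in edgeR, a count near what the 10.3% of all tested genes gives for so few. Tymp, 411 bases from Odf3b, had a log2 fold change of -0.08 (adjusted p = 0.841 in edgeR). Shc2, 6 bases from Odf3l2, fell by 0.41 on the log2 scale (adjusted p = 0.019 in edgeR). No gene of the table overlapped an Odf gene.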

How the data were processed

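RNA of whole testes from 4 Tmem232-/- and 4 Tmem232+/+ mice was sequenced in read pairs. The authors mapped filtered reads to GRCm38.p6 with HISAT and Bowtie2 and counted them with StringTie and featureCounts. Versions are not given in the sources used here. The authors deposited estimated counts without normalization, and since 10.7% to 11.2% of genes per library had a count that was not whole, counts were rounded. The FPKM deposited by the authors are named only as expression values, and were identified as counts per transcript length and library total (median variation of the implied length 0.409% over 851 genes). The log2 fold change, p-value and q-value that the authors deposited, and their means, were not used.

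Genotypes were compared with edgeR 4.0.16 in R 4.3.3 (default filter on low counts, TMM, quasi-likelihood test without covariates, Benjamini-Hochberg adjustment over 15787 genes, called at an adjusted p under 0.05). Single values were compared by exact permutation tests over 70 arrangements. The steps were tested on simulated counts. Levels per gene length are FPKM, and all others are TMM-scaled CPM. Promoters come from RefSeq and transcript annotation from GENCODE M21. Alternatives were DESeq2 1.42.0, its size factors, library size alone, no filter, at least 10 counts in every library, limma 3.58.1 on log2(FPKM + 1), an adjusted p under 0.01, a block by replicate number, and leaving out each library. The Odf genes and the gene and marker lists were chosen with earlier results of these data known. All Odf genes are named, with the called, highest or lowest genes of each list and some other cell markers. Also named are the 3 genes most like Odf1 and Odf2, neighbours, and the leading spermatid markers. No 2 libraries of a genotype agreed within sampling noise.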

Additional observations from a re-analysis of the deposited data

Results flagged for a closer look

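Odf3l2 was at 0.0666 CPM in KO-labelled replicate 1 and at 0 in the other 3 libraries of that genotype, so that 1 library stood apart from the others by the whole range of the group (ratio 1), past the limit of Dixon's test. The value is a single count, and with 0 in the other libraries any single count gives this ratio. Of 15 groups of 4 libraries that were examined this way it was the only one, and chance gives about 1 in 20, or 0.75 in 15 groups.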

How the results depend on the processing

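The count of Odf genes that rose was 5 and stayed between 4 and 5 over 16 alternatives, and the count that fell was 0 in each of 15. Odf1, Odf3 and Odf3l1 were called in all 15 alternatives. Odf3b, which enters the test only through its high group, was not tested with at least 10 counts in every library. Odf4 and Odf2l were called in none. Odf2 lost its call in 6 of 15, with an adjusted p of 0.0686 in edgeR under the replicate block. The replicate numbers are only shared labels: libraries with the same number correlated between -0.30 and 0.05 in their deviations from the genotype means. With the replicate block, 1317 genes rose and 28 fell over all genes, against 1633 and 230 without it, the centriole list had 1 call instead of 2, and Tmem232 had a log2 fold change of 0.26 (adjusted p = 0.114 in edgeR). With each library left out, Tmem232 lay between 0.21 and 0.32, the centriole list had 1 to 4 calls and the tektins 3 to 5. The count of all genes that fell was 131 with DESeq2 size factors, 415 with library size alone, 71 without a filter, 466 with limma on log2(FPKM + 1) and 37 to 356 with each library left out; the cause was not tested. The directions of Odf1, Odf2, Odf3 and Odf3l1 were the same under each alternative. Depth limits Odf3b and Odf3l2, which rest on few counts.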
